A study of Mus musculus with 474 samples.

Results

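Skeletal muscle RNA from generation 19 of the Diversity Outbred (DO) stock was compared with that from generation 23, over all libraries whose titles carry either number. Generation 19 had 99 libraries (49 labelled female, 50 male) and generation 23 had 95 (47 female, 48 male), of a series that also holds 94 libraries of generation 17, 93 of generation 18 and 93 of generation 21. The number in the title was read as the generation, which is an assumption, because the study's text does not name generation 23. DO mice are an outbred stock bred from inbred founder strains, so each animal has a genome of its own, and each gave 1 library. All animals of both generations ate the same high-fat, high-sugar diet, labelled 45 percent fat, and the study's methods give 1 starting age and 1 harvest age for all of them. No animal on another diet was measured here, so both generations are models of muscle under this diet only. The study adjusted for generation and, separately, for a wave of animals. Wave is not in the labels and was not fitted, so its part in the differences was not tested. Kinship between animals was not fitted either.

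In an outbred stock, the share of animals that carry a founder's version of a gene drifts from one generation to the next, and a version held by few animals can be lost. Founder genotypes were not analysed here. Muscle RNA also follows the state of the animal and of the dissection: immediate-early genes are switched on within minutes of stimulation or handling, and fat or blood left in the sample adds its own RNA. The question here was how far the muscle transcriptome differed between both generations, and in which genes.

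Muscle markers were high throughout. Median Acta1 (skeletal alpha-actin) was 20741 CPM (counts per 1000000 of the scaled library total) in generation 19 and 21243 in generation 23, and median Myh4 (fast myosin heavy chain) was 69863 and 67880 CPM. The total count per library ranged from 52.1 to 153.7 M (1000000 counts) in generation 19 and from 35.9 to 138.2 M in generation 23, with means of 79.7 ± 17.1 (SD, n = 99) and 84.5 ± 16.96 M (SD, n = 95). The difference in means was 4.82 M (permutation test, 2-sided, p = 0.0511). In 1 library labelled male, from generation 19, Xist and the Y-linked genes had 0 counts. Its column, DO308, and that of DO048, a female of generation 17, stand in each other's places in the deposited tables, and the names were taken as right. Leaving the library out kept all 8 calls described next.

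Few genes passed the test. Of 17725 genes tested, 8 passed an adjusted p of 0.05 (edgeR quasi-likelihood test with sex as covariate, Benjamini-Hochberg adjustment), which is 0.0451% of the genes, and all 8 were lower in generation 23. They were Cwc22, Il1f9, Gm42900, Gm42764, Gm19757, Ptger4, Gpt2 and Tfdp1, and 5 of them differed by at least 1.5-fold (0.0282% of the genes). In this fit no gene was called higher in generation 23. Higher calls numbered 4 in the fit of all libraries of the series, 3 without the sex term, 2 with library block and 1 with cell-type scores as covariates. In the main fit, at an unadjusted p under 0.05, there were 800 genes higher (4.51%) and 821 lower (4.63%), 9.15% in all. DESeq2 called 12 genes, all lower, and limma on the deposited transform called 0, with 1651 genes at an unadjusted p under 0.05 and a lowest adjusted p of 0.0894. The median log2 difference over all genes was -0.0017. The 95% interval of the difference lay within 1.5-fold for 93.9% of the genes, and for 98.1% of the 12588 genes with a mean of at least 1 CPM. In a fit of all libraries of the series, this pair of generations had the fewest called genes of the 10 possible pairs, 14, against 48 for generations 19 and 21 and 1508 for generations 17 and 23. These 10 counts share libraries, and their differences were not tested.

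**Figure D1:**
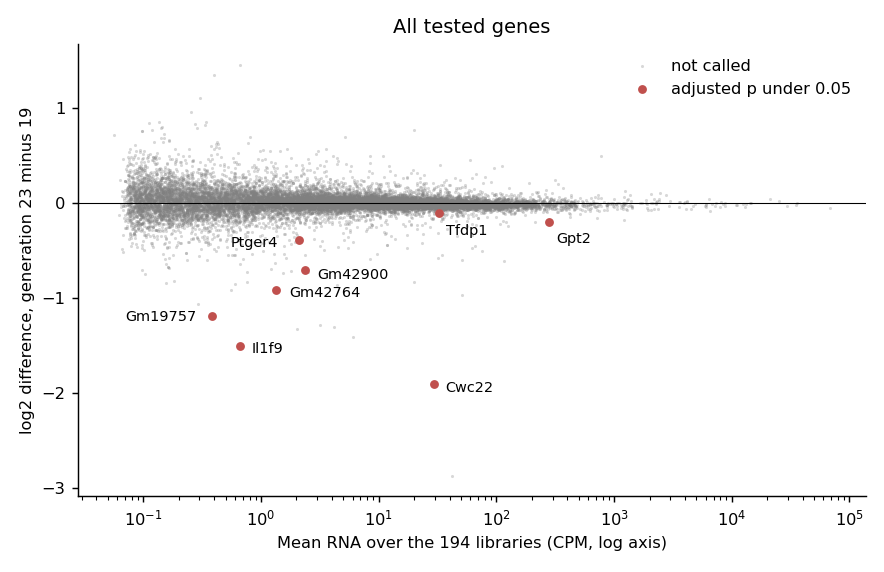
Each point is 1 of 17725 genes, with its mean RNA level (CPM, log axis) across and its log2 difference, generation 23 minus generation 19, upwards. The 8 called genes (red, named) all lie below 0, and Cwc22 lies at -1.91.

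Cwc22 was the gene with the lowest p. It encodes a splicing factor that brings the exon junction complex to spliced RNA, and it lies in R2d, a segment of chromosome 2 whose number of copies varies between mouse strains (chromosome 2, 77881159 to 77946375, minus strand, GRCm38; protein-coding). In generation 19 the lowest, median and highest values were 8.22, 11.9 and 436.7 CPM. In generation 23 they were 8.43, 11.2 and 15.7 CPM. The medians were close and the low ends overlapped, and the generations parted only at the top. The fitted log2 difference was -1.91 ± 0.22 (SE), a 3.75-fold lower fitted level in generation 23 (edgeR, adjusted p = 5.84e-11). With limma on the deposited transform it was -0.53 and not called (adjusted p = 0.202). The edgeR fit takes 1 level for each sex and generation, so its SE and p do not describe the separate classes given next.

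The levels of Cwc22 fell into separate classes. In generation 19, 89 animals had at most 15.4 CPM and 10 animals had at least 329.1 CPM, with none between. In generation 23, no animal of 95 was above 15.7 CPM, which allows a share of up to 3.16% by the rule of 3 in 95, or 3.81% as the upper end of the 95% Clopper-Pearson interval, for sampling of animals alone. With a threshold of 32 CPM, set after the levels were seen, the share of high animals was 10.1% in generation 19 (10 of 99, 95% Clopper-Pearson interval 4.95 to 17.8%) and 0% in generation 23. The threshold was placed in a gap already seen in the gene with the lowest p, so the shares are a description, with no test. The same 10 animals of generation 19 were high at a threshold of 20 or 64 CPM.

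Of the 10 high animals, 8 were female and 2 were male. In females the count was 8 of 49 in generation 19 and 0 of 47 in generation 23. In males it was 2 of 50 and 0 of 48. The share of high animals within generation 19 was 16.3% in females and 4% in males, also a description. In generation 17 the counts were 6 of 48 females and 6 of 46 males, and in generation 18 they were 7 of 45 and 5 of 48. The fitted log2 difference was -2.58 in females (edgeR, adjusted p = 3.67e-07) and -1.25 in males (adjusted p = 0.0442), and the difference between these values did not pass (interaction, adjusted p = 0.92). Only males that stood apart in Cwc22 or in Slc4a1 or Gm13339, described below, were left out in turn, in 8 fits. The call in males was lost in 4 of these. Without the high males DO292 and DO319 of generation 19 the values were -0.84 (edgeR, adjusted p = 0.797) and -0.72 (adjusted p = 0.713). Without DO513 or DO549 of generation 23, which had low Cwc22, the value stayed at -1.25 and narrowly missed the threshold (adjusted p = 0.0564 and 0.0541). Other males were not left out, so the call is a borderline one. DESeq2, which replaces counts it takes for outliers, gave -0.06 in males (adjusted p = 0.989).

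The other generations place both groups in a series. High Cwc22 was found in 12 of 94 animals of generation 17 (12.8%), 12 of 93 of generation 18 (12.9%), 10 of 99 of generation 19, 1 of 93 of generation 21 (1.08%) and 0 of 95 of generation 23. In the comparison of generation 21 with generations 17 and 18, which shares no library with the comparison of generations 19 and 23, Cwc22 differed by -1.82 on the log2 scale (edgeR, adjusted p = 1.24e-08), where 2.83% of all genes were called. The single high animal of generation 21 had 341.9 CPM. Medians over all animals of generations 17, 18, 19, 21 and 23 were 12.2, 11.2, 11.9, 11.2 and 11.2 CPM.

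**Figure D2:**
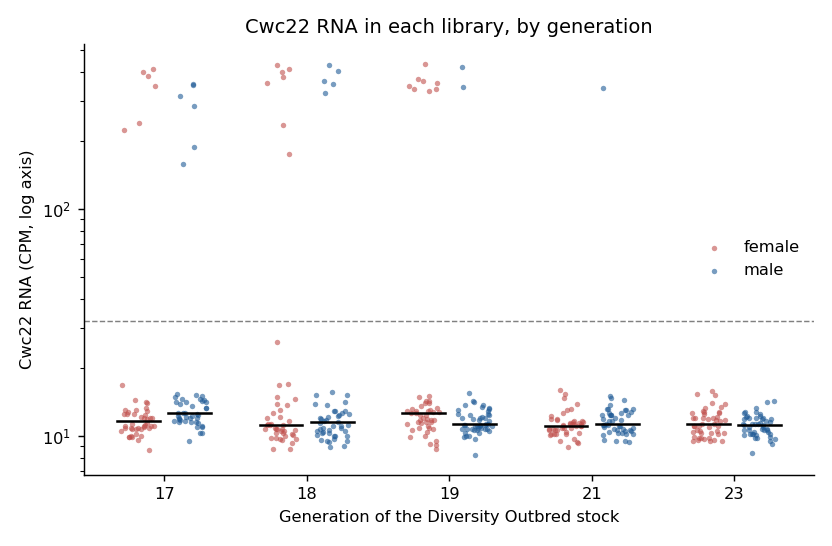
Each point is 1 library, with the generation across and Cwc22 RNA (CPM, log axis) upwards, females red and males blue; black bars are the medians of each sex and the dashed line is the 32 CPM threshold. Above the line lie 10 animals of generation 19 and 0 of generation 23, and the medians over both sexes lie between 11.2 and 12.2 CPM in all 5 generations.

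The high animals were counted by library block. Blocks are runs of consecutive library numbers in the titles and are not stated to be plates. Blocks 1 to 5 held 0, 5, 2, 2 and 1 of the 10 animals. Within block 2, which held 20 libraries of generation 19 and 22 of generation 23, Cwc22 differed by -3.09 on the log2 scale (edgeR, adjusted p = 0.00554). In blocks 1, 3, 4 and 5 the values were -0.01, -1.92, -1.20 and -1.23 and did not pass, with adjusted p from 0.625 to 0.979. With block as a covariate over both generations, Cwc22 was called (-1.68, adjusted p = 5.97e-08), and so were the other called genes except Gm19757 (-1.05, adjusted p = 0.0695).

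No neighbour of Cwc22 was called. Of 117 other tested genes that start within 10 Mb of it, 0 passed by edgeR, and 11 had an unadjusted p under 0.05 (9.4%, beside 9.15% of all genes). Their log2 differences ran from -0.37 to 0.44 with a median of -0.01. Of the 42 that start within 4 Mb of Cwc22, 0 passed and 6 had an unadjusted p under 0.05 (14.3%). Of these, 4 were higher and 2 lower in the later generation. The median log2 difference of the 42 genes was 0.0003. Whether their share differed from that of all genes was not tested. Each of the 8 called genes stood alone in its 4 Mb window, and they lay on 5 chromosomes.

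Il1f9, Gm42900, Gm42764 and Gm19757 had the same shape as Cwc22. Il1f9 (chromosome 2, 24186476 to 24193568, plus strand) encodes interleukin-36 gamma, a cytokine of epithelia, and starts 53.7 Mb from Cwc22. Gm19757 is a long intergenic non-coding RNA (chromosome 6, 105481266 to 105492668, minus strand). Gm42900 (chromosome 5, 107254338 to 107256504, minus strand) is annotated as a transcript still to be experimentally verified and overlaps Tgfbr3 on the same strand. Gm42764 (chromosome 5, 30759032 to 30760477, plus strand) is a non-coding RNA inside the gene Dpysl5, also on the same strand. Reads from Gm42900 and Gm42764 cannot be told apart here from those of unspliced Tgfbr3 and Dpysl5 RNA.

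No Cwc22 transcript in GENCODE M21 (13 transcripts) aligned to any of the 4 with blastn at an e-value of 0.001. Among the 4, the first 55 bases of Gm19757 were identical to the last 55 of the Il1f9 transcript (bases 1594 to 1648). The opening 30 bases of Gm19757 are shown because they belong to the exact match between Il1f9 and Gm19757, and capitals mark bases that stand in both transcripts.

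Gm19757, chr6:105492639-105492668, minus strand, GRCm38 (RefSeq): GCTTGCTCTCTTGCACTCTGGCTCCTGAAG

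Gm19757 and Gm42900 had 12 alignments, the best of 80 bases at 82.5% identity and in opposite orientation.

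Il1f9 ran from 0.0704 to 8.25 CPM in generation 19 (median 0.288) and from 0.0565 to 1.33 CPM in generation 23 (median 0.257). The 10 animals of generation 19 with high Cwc22 had 6.31 to 8.25 CPM, and the other 89 had at most 1.22. The log2 difference between generations was -1.50 ± 0.23 (SE; edgeR, adjusted p = 6.73e-06).

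Gm19757 ran from 0 to 6.28 CPM in generation 19 (median 0.146) and from 0 to 0.98 CPM in generation 23 (median 0.167). It was at 2.81 to 6.28 CPM in the 10 animals and at most 0.597 in the other 89. Its log2 difference was -1.19 ± 0.24 (SE; edgeR, adjusted p = 0.00685). Without male DO319 of generation 19, which had the highest value of Gm19757, the difference was -0.86 and the call was lost (adjusted p = 0.138), as it was with cell-type and slow-fibre scores as covariates (-0.97, adjusted p = 0.248).

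Gm42900 had medians of 1.85 CPM in generation 19 (range 0.654 to 16.8) and 1.68 in generation 23 (0.947 to 3.25). It was at 8.26 to 16.8 CPM in the 10 animals and at most 3.699 in the other 89. Its log2 difference was -0.70 ± 0.12 (SE; edgeR, adjusted p = 0.000322). Gm42764 had medians of 0.957 CPM in generation 19 (range 0.115 to 15.4) and 0.83 in generation 23 (0.21 to 2.61). It was at 6.08 to 15.4 CPM in the 10 animals and at most 2.44 in the other 89, with a log2 difference of -0.91 ± 0.18 (SE; edgeR, adjusted p = 0.00218). For each of the 4 RNAs, the 10 animals and the other 89 did not overlap, and the other 89 lay in the range of generation 23 or close to it. The animals were divided by their Cwc22 level, so these ranges are a description, with no test.

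With the Cwc22 level of each animal as a further covariate, an alternative chosen after seeing the data, none of the 4 RNAs was called. Their log2 differences became 0.07 for Il1f9 (edgeR, adjusted p = 0.919), 0.51 for Gm19757 (adjusted p = 0.201), -0.05 for Gm42900 (adjusted p = 0.863) and -0.02 for Gm42764 (adjusted p = 0.978). In generation 21 against generations 17 and 18, all 4 were called, at -1.47, -1.24, -0.81 and -0.93 in the same order, where 1.16% of all genes were called lower. The single high animal of generation 21 had 6.99 CPM of Il1f9, 4.82 of Gm19757, 11.9 of Gm42900 and 7.23 of Gm42764.

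**Figure D3:**
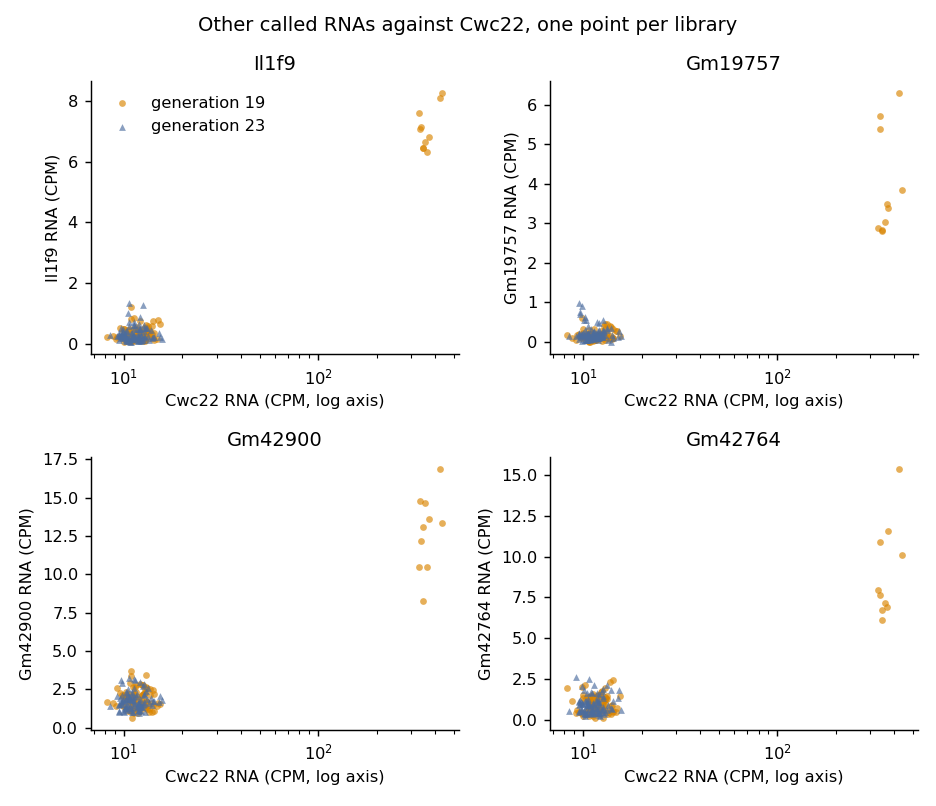
Each point is 1 library of either generation, with Cwc22 RNA (CPM, log axis) across and Il1f9, Gm19757, Gm42900 or Gm42764 RNA (CPM) upwards; circles are generation 19 and triangles generation 23. The 10 animals with Cwc22 of at least 329.1 CPM stand apart in all 4 panels, and all are of generation 19.

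Ptger4, Gpt2 and Tfdp1 differed by less, without a separate class of animals. Ptger4 (chromosome 15, 5206661 to 5244187, minus strand) encodes EP4, a receptor for prostaglandin E2. It ran from 0.614 to 5.71 CPM in generation 19 (median 2.14) and from 0.973 to 4.21 CPM in generation 23 (median 1.703), so the ranges overlapped almost wholly. The log2 difference was -0.39 ± 0.08 (SE; edgeR, adjusted p = 0.00676), and it was -0.40 in females and -0.37 in males, neither called alone (adjusted p = 0.197 and 0.686). Across all generations the medians were 1.54, 1.68, 2.14, 1.60 and 1.703 CPM in order of generation, with generation 19 the highest.

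Gpt2 (chromosome 8, 85492576 to 85527560, plus strand) encodes the mitochondrial alanine aminotransferase, which converts pyruvate and glutamate to alanine and 2-oxoglutarate. It ran from 164.6 to 451.3 CPM in generation 19 (median 300.6) and from 146.6 to 372.7 CPM in generation 23 (median 259.7). The log2 difference was -0.20 ± 0.04 (SE; edgeR, adjusted p = 0.00986), and -0.22 in females and -0.17 in males. Gpt2 was the only gene called with Cwc22 as a covariate (-0.21, adjusted p = 0.0298), where Ptger4 was at -0.37 (adjusted p = 0.07) and Tfdp1 at -0.10 (adjusted p = 0.105), values close to those without it. Its call was lost with cell-type and slow-fibre scores as covariates (-0.16, adjusted p = 0.125). Medians by generation were 293.2, 278.9, 300.6, 269.4 and 259.7 CPM, with generation 23 the lowest.

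Tfdp1 (chromosome 8, 13338751 to 13378448, plus strand) encodes DP1, the partner of E2F factors at cell-cycle promoters. It ran from 23.1 to 46.7 CPM in generation 19 (median 32.8) and from 21.6 to 41.99 CPM in generation 23 (median 30.4). The log2 difference was -0.11 ± 0.02 (SE; edgeR, adjusted p = 0.0311). In females its median was 36.8 CPM in generation 19 and 33.7 in generation 23, and in males 30.4 and 28.7 CPM. The call for Tfdp1 was lost with scaling by total count alone (-0.09, adjusted p = 0.141), without the sex term (-0.11, adjusted p = 0.17) and with cell-type and slow-fibre scores (-0.10, adjusted p = 0.125). In the comparison of generation 21 with generations 17 and 18, which uses other libraries of the same stock, none of these 3 genes was called. The log2 differences were -0.00 for Ptger4, -0.07 for Gpt2 and 0.00 for Tfdp1 (edgeR, adjusted p = 0.995, 0.455 and 0.996).

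**Figure D4:**
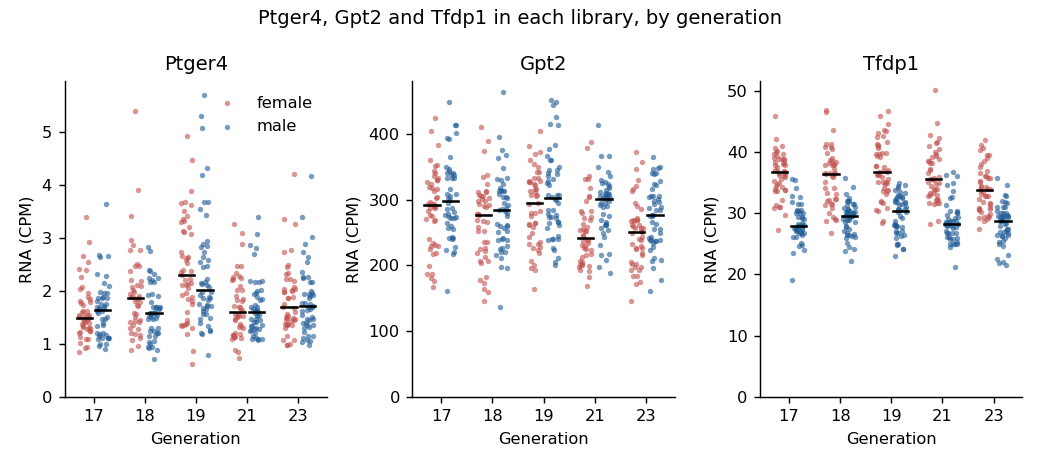
Each point is 1 library, with generation across and RNA (CPM, axis from 0) upwards for Ptger4, Gpt2 and Tfdp1, females red, males blue, black bars the medians of each sex. Over both sexes, generation 19 has the highest median of Ptger4 (2.14 CPM) and generation 23 the lowest of Gpt2 (259.7 CPM), with ranges that overlap between all generations.

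Sexes were examined apart. In females, 7 genes were called (0.0395% of the genes): Cwc22, Il1f9, Gm42900, Gm19757 and the pseudogene Gm13339 lower in generation 23, and Slc4a1 and Rgs7bp higher. Of these calls in females, that of Gm19757 was lost in 10 of 14 fits that left out 1 library and with library block as a covariate (-1.41, adjusted p = 0.18). That of Gm42900 was lost without DO221 or DO266, and that of Gm13339 under DESeq2 (-0.57, adjusted p = 0.781). In males, only Cwc22 was called (0.00564%). The difference between the sexes passed for Slc4a1 and Gm13339 alone (0.0113%). These 3 genes are named here because they were called, after their values were seen. Rgs7bp (chromosome 13) encodes a membrane anchor for regulators of G-protein signalling, and its median in females was 1.76 CPM in generation 19 and 2.42 in generation 23 (log2 difference 0.41, edgeR, adjusted p = 0.0283). In males its medians were 1.53 and 1.85 CPM (0.09, adjusted p = 0.999), and the difference between the sexes was -0.32 and did not pass.

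Slc4a1, the anion exchanger of the red cell membrane, rested on few animals. Its median was 0.0487 CPM in females of generation 19 and 0.0969 in females of generation 23, and the highest values were 2.26 and 23.4 CPM. Only 1 female of generation 19 and 3 of generation 23 were above 1 CPM. The log2 difference was 2.89 in females (edgeR, adjusted p = 0.00156) and -0.85 in males (adjusted p = 0.996). Without male DO310 of generation 19 it was -0.09 in males (adjusted p = 0.999), and Slc4a1 was called higher over both sexes (1.51, adjusted p = 0.035). Over both sexes the main fit gave 1.10 and no call (edgeR, adjusted p = 0.307). Slc4a1 was also called in the fit of all libraries of the series (1.78, adjusted p = 0.000255) and without the sex term. Without female DO497 of generation 23, the difference in females was 1.73 and the call was lost (adjusted p = 0.241), as it was with library block as a covariate (1.98, adjusted p = 0.224). The same library had the highest Alas2 (62.5 CPM, others at most 20.5), Hbb-bs (1259 CPM, others at most 478.4) and S100a8 (13.3 CPM, others at most 6.34) of both generations. Its part in other results is given beside the blood cell lists.

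The gene lists were compared next. Of 36 lists, 35 had no called member. Over the listed genes tested, each counted once, 1 was called (Cwc22), and 70 had an unadjusted p under 0.05, which is 14.2% beside 9.15% of all genes. The medians of 27 lists lay within 0.1 of 0 on the log2 scale. Members named in what follows beyond those chosen by the stated rule were chosen after their values were seen, and none of them was called. In bulk muscle, fewer cells of a type and less RNA per cell cannot be told apart.

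Immediate-early genes encode transcription factors and regulators induced within minutes of a stimulus. Of 23 tested, 0 were called, 14 had an unadjusted p under 0.05 and lower values in generation 23, and 0 had one in the other direction. The median log2 difference was -0.20, beside -0.0017 over all genes. Median Egr1 was 34.8 CPM in generation 19 (range 3.28 to 119.3) and 17.96 in generation 23 (2.99 to 106.5), a log2 difference of -0.55 ± 0.16 (SE; edgeR, adjusted p = 0.177). Fos differed by -0.48 (adjusted p = 0.336), Junb by -0.47 (adjusted p = 0.224), Nr4a1 by -0.20 (adjusted p = 0.398) and Arc by -0.00 (adjusted p = 0.998). The list median was -0.30 in females and -0.12 in males, and no member's difference between the sexes passed. By generation, the median of the list's mean log2 CPM was 3.04, 3.31, 4.12, 3.72 and 3.71, the highest being generation 19. The range over animals was 2.34 to 5.35 in generation 19 and 2.32 to 4.94 in generation 23.

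Other lists that follow the state of the animal were close to 0. Of 18 clock genes, 0 had an unadjusted p under 0.05 (median -0.02), with Dbp at -0.22 (edgeR, adjusted p = 0.73) and Per1 at -0.01 (adjusted p = 0.991). Of 14 glucocorticoid-response genes, 2 had one (median -0.01), and Fkbp5 was at -0.15 (adjusted p = 0.627). Of 14 heat shock chaperones, 2 had one, both lower (median -0.04). Pdk4, the kinase that restrains glucose oxidation in fasting, was at -0.01 (adjusted p = 0.979).

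Muscle's own programmes were close to 0 as well. The medians were -0.01 for 13 fast-fibre genes, 0.09 for 10 slow-fibre genes, 0.01 for 12 glycolysis genes, 0.01 for 18 genes of the tricarboxylic acid cycle, 0.01 for 35 nuclear genes of complex I, 0.00 for 13 mitochondrially encoded genes, 0.01 for 19 genes of branched-chain amino acid breakdown and -0.02 for 40 ribosomal protein genes. Myh7, the slow myosin heavy chain, had medians of 1090 and 1163 CPM (log2 difference 0.06, 95% interval -0.08 to 0.20), and Myh4 differed by -0.05 (interval -0.10 to 0.00). Both intervals lay inside a 1.5-fold difference (0.58 on the log2 scale). Nucb2, the precursor of nesfatin, was at 0.04 (interval -0.04 to 0.11).

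MHC class I genes, which present peptides at the cell surface, had a median of 0.17. All 13 tested had higher fitted levels in generation 23, 6 had an unadjusted p under 0.05, and 0 were called. Median H2-D1 was 38.5 CPM in generation 19 and 46.03 in generation 23 (log2 difference 0.26, edgeR, adjusted p = 0.15), and B2m differed by 0.19 (adjusted p = 0.174). The list median was 0.26 in females and 0.05 in males. The interferon list had a median of 0.07, with 3 of 25 genes higher and 1 lower at an unadjusted p under 0.05. Its median was 0.22 in females, with 8 higher, and -0.01 in males, with 1 lower.

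Markers of fat had higher fitted levels in generation 23, without a call. White adipocyte markers had a median of 0.24, with 5 of 12 genes at an unadjusted p under 0.05. Median Adipoq (adiponectin) was 16.7 and 19.2 CPM (log2 difference 0.32, edgeR, adjusted p = 0.434), and Lep (leptin) was 6.33 and 9.06 CPM (0.39, adjusted p = 0.567). Lipogenesis genes had a median of 0.16, with 5 of 12 genes at an unadjusted p under 0.05, among them Scd1 (medians 495.1 and 751.2 CPM, 0.49, adjusted p = 0.199). Their median was 0.01 in females, with 2 genes at an unadjusted p under 0.05, and 0.26 in males, with 8. The mean log2 CPM of the white adipocyte list ran from 2.48 to 6.49 in generation 19 (median 4.27) and from 1.95 to 6.32 in generation 23 (median 4.54). Adipocytes express several lipogenesis genes, and the part of fat cells in these values was not tested. Ucp1, the uncoupling protein of brown fat, was at 0 counts in 28 animals of generation 19 and 21 of generation 23, and its median was 0.0945 and 0.182 CPM, while its mean was 6.198 and 4.2 CPM. The fitted log2 difference of Ucp1 was 0.69 (edgeR, adjusted p = 0.804), and DESeq2 gave -0.27. By edgeR it was -1.29 in females (adjusted p = 0.648) and 2.72 in males (adjusted p = 0.686), and the difference between the sexes did not pass (interaction, adjusted p = 0.234). The brown adipocyte list had a median of 0.02, with 0 of 6 genes at an unadjusted p under 0.05.

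The erythroid and neutrophil lists turned on 1 library. The erythroid list had a median of 0.25, with 4 of 8 genes at an unadjusted p under 0.05, and the neutrophil list 0.43, with 2 of 5. The sexes had opposite signs: the erythroid median was 0.68 in females and -0.17 in males, and the neutrophil median was 1.202 in females and -0.26 in males. Without female DO497 of generation 23 the medians were 0.06 and 0.14, and 0 genes of either list had an unadjusted p under 0.05. Hbb-bs differed by 0.28 (edgeR, adjusted p = 0.488), Alas2 by 0.33 (adjusted p = 0.475) and Hba-a1 by -0.31 (adjusted p = 0.911). The T cell and B cell list had a median of -0.13 (-0.02 in females and -0.29 in males), with 0 of 9 genes at an unadjusted p under 0.05 by edgeR. DESeq2 in females called 21 genes, with the lymphocyte genes Cd79a, Cd79b, Ms4a1, Cd22, Trac, Lck and Cd4 among them. Endothelial, Schwann cell, macrophage and fibroblast lists had medians of -0.01, 0.05, 0.06 and 0.05.

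**Figure D5:**
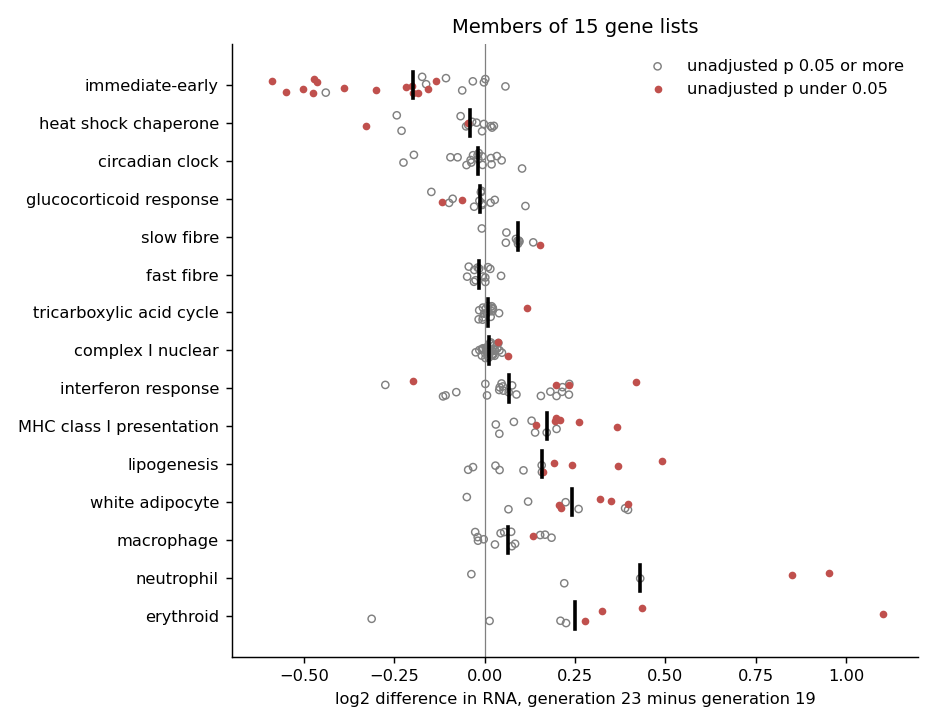
Each point is 1 gene of 1 of 15 lists, at its log2 difference, generation 23 minus generation 19; red points have an unadjusted p under 0.05, and black bars are list medians. Immediate-early genes lie mostly left of 0 (median -0.20), white adipocyte genes mostly right of it (0.24), and fibre-type and mitochondrial lists around it.

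Glo1 and Nnt, which with Cwc22 and H2-Ea-ps make up the list of genes known to vary in copy or structure between founder strains, had overlapping distributions. Glo1 had medians of 141.9 and 147.7 CPM (log2 difference 0.11, edgeR, adjusted p = 0.637), and Nnt had 140.4 and 137.99 CPM (0.00, adjusted p = 0.992). H2-Ea-ps had 1.27 and 1.30 CPM (-0.16, adjusted p = 0.939).

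No gene passed a test of the spread among animals (limma on absolute deviations of the deposited transform, 0 of 17725, 0%), with 912 genes at an unadjusted p under 0.05, and on log2 CPM 0 passed, with 924. On the deposited transform, Cwc22 had a spread difference of -0.47 (limma, unadjusted p = 0.000572, adjusted p = 0.506). Its SD was 107.6 CPM in generation 19 and 1.43 CPM in generation 23, so this test did not call a class held by few animals. The leading axes of variation were tested as well. The first 5 principal components of the deposited transform held 7.46, 5.46, 4.18, 2.58 and 2.02% of the variance, and none passed (permutation test within sex, adjusted p from 0.194 to 0.964). After removal of sex means, generation took at most 2.24% of any of them. With log2 CPM in place of the transform it took 5.10% of the fourth component, which passed (adjusted p = 0.00845).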

How the data were processed

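Per the study's methods, the authors treated both mates as single reads in 1 file, mapped these to the pooled transcripts of the founder strains, and estimated counts per gene with EMASE, run by GBRS (versions not given in the sources used here). The deposited values are expected counts, not normalised, in which a fragment can count more than once. The authors also deposited a score, the variance stabilising transform (VST) of DESeq2, close to a log2 scale. The build named in the submitters' processing notes is GRCm38, and 99.5% of deposited gene starts equal those of GENCODE M21. Whether strand was used in counting was not given, so overlapping genes are uncertain.

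Columns were matched to samples by animal number. Counts were rounded and tested in R 4.3.3 with edgeR 4.0.16 (quasi-likelihood F-test, TMM factors, sex as covariate), after filterByExpr (minimum count 10, grouped by sex and generation) kept 17725 of 20612 genes. P-values were adjusted by Benjamini-Hochberg over all genes, with a threshold of 0.05. All log2 differences are generation 23 minus generation 19 unless stated. CPM used TMM-scaled totals over all libraries of the series and is not scaled for gene length, so levels are compared within a gene only. List means used log2 CPM with a prior count of 2. Alternatives used limma 3.58.1 on the VST, DESeq2 1.42.0, other scalings, filters and covariates, and libraries left out. Permutation tests drew 100000 resamples, and transcripts were aligned with blastn 2.17.0. Each library is another animal, and nothing in the labels pairs animals across generations.

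Genes were named by rule: up to 12 called protein-coding genes with the largest rises and falls and a mean of at least 1 CPM, up to 4 members of lists with 2 or more called members, genes of the 4 Mb windows with most called genes, and a set named whatever their result. Il1f9, Gm42900, Gm42764 and Gm19757 fall outside the first part and are named as called genes. The comparison, lists and set were chosen with earlier results of these data known.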

Additional observations from a re-analysis of the deposited data

Results flagged for a closer look

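For 2 genes the difference between generations differed between females and males by a test of the interaction. For Slc4a1 the male difference minus the female difference was -3.74 on the log2 scale (edgeR, adjusted p = 0.000141), and without female DO497 of generation 23 it was -2.58 and not called (adjusted p = 0.115).

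For Gm13339, an unprocessed pseudogene on the opposite strand of Myo3a (chromosome 2, 22590024 to 22590533), the value was 8.58 (edgeR, adjusted p = 0.000119). Its medians lay between 0.05 and 0.0881 CPM in all 4 groups, and it was above 10 CPM in 4 females and 3 males of generation 19 and in 0 females and 2 males of generation 23, with a highest value of 2139 CPM. Without male DO549 of generation 23 the value was 6.94 (adjusted p = 0.00432). DESeq2, which replaces counts it takes for outliers, gave -4.01 for Gm13339 (adjusted p = 0.000981), the opposite sign.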

How the results depend on the processing

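All 8 calls between generations held under DESeq2 size factors in edgeR, without a filter, under DESeq2, in the fit of all libraries and without the library against its sex label. Adding library block ended the call of Gm19757, total count alone that of Tfdp1, no sex term that of Tfdp1, and cell-type and slow-fibre scores those of Gpt2, Tfdp1 and Gm19757 (6 calls, 5 of them among the 8). The count of 8 became 5 with the stricter filter, which did not test the other 3, 14 in the fit of all libraries (4 higher), 0 with limma on the VST, and 1, 2, 0, 0 and 0 within library blocks 1 to 5, which hold fewer samples. With the Cwc22 level as a covariate, added after seeing the data, it was 1, and the signs of Il1f9 (0.0665) and Gm19757 (0.514) were reversed without a call. Within block 1, which held no animal with high Cwc22, Gm42900 was at 0.0282 and Gm19757 at 0.194, both without a call. Limma on the VST gave smaller values than edgeR for Cwc22 (-0.53 against -1.91), Il1f9 (-0.24 against -1.50) and Gm19757 (-0.11 against -1.19). The same held for Gm42900 (-0.24 against -0.70), Gm42764 (-0.23 against -0.91) and Ptger4 (-0.21 against -0.39). Gpt2 (-0.19 against -0.20) and Tfdp1 (-0.10 against -0.11) nearly kept theirs. Leaving out 1 library that stood apart, also added later, gave 7 to 11 calls over 14 fits, and Cwc22 was called in all 14 (-1.92 to -1.64).

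For the interaction, 2 calls became 0 with the stricter filter, which tested neither gene, 7 with DESeq2 and 0 with limma on the VST, and Gm13339 was reversed under DESeq2 (-4.01); leaving out 1 library gave 1 to 3. In females, 7 calls became 21 with DESeq2, of which 15 were higher in generation 23, with B-cell genes (Cd79a, Cd79b, Ms4a1, Cd22) and T-cell genes (Trac, Lck, Cd4) among the 21, and 0 with limma on the VST; leaving out 1 library gave 5 to 8. In males, 1 call became 5 with DESeq2, 0 with limma on the VST and 0 with block as a covariate; leaving out 1 library gave 0 to 1. The causes of these changes were not tested.

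The total count differed by 0.085 on the log2 scale (permutation test, 2-sided, p = 0.043) and by 11.7 M within block 5 (p = 0.00853), while within blocks 1 to 4 it was 7.84, 5.64, 4.84 and -3.84 M (p from 0.273 to 0.332) and the difference in means over all libraries missed the threshold. With log2 CPM in place of the VST, 1 of 5 principal components passed, the fourth (permutation test, adjusted p = 0.00845). Among the named genes, values called in neither fit changed sign 53 times. No paired analysis was possible because every animal gave 1 library and the labels pair no animals across generations. For 6.06% of the genes, called ones included, the 95% interval reached a 1.5-fold difference.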
